A study of Ctenopharyngodon idella with 2 samples.

Results

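In the spleen of grass carp (Ctenopharyngodon idella), a cyprinid fish farmed in fresh water, the transcripts of 146 genes stood in the high temperature library at 0.25 or less of their level at normal temperature. These genes were selected on the measured counts of the same 2 libraries that describe them. CPM values (a gene's count scaled to a fixed total of all gene counts in its library) were compared after adding 0.05 to each value. A gene was taken when it had at least 100 counts at normal temperature and a ratio, high over normal temperature, of at most 0.25. Of 27929 gene IDs listed, 11482 had at least 100 normal temperature counts, and the 146 are 1.27% of these. Their lower level is therefore a description and carries no test. Membership, median ratios and counts of genes past a ratio or fold use this ratio with 0.05 added. Counting intervals and bounds of a ratio, and counts of genes by such a bound, use CPM with nothing added. The fold and ratio of a single gene beside its counting interval, and those of neighbouring genes, are plain ratios of CPM with nothing added, which are more extreme for sparse genes.

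The study set spleen RNA of fish under a high temperature treatment against spleen RNA of fish kept at normal temperature, to follow immune gene expression under heat. Each treatment had 1 RNA sequencing library, with 16658918 gene counts at normal and 20936717 at high temperature. Strain, age, water temperature, length of exposure and number of fish are not stated in the labels. Without a second library the variation between fish was not measured, and nothing below has a replicate check.

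The fish spleen filters blood, stores and removes red cells, and holds macrophages and lymphocytes that take up and answer antigens. Fish do not hold their body temperature against that of the water, so warm water acts directly on the cells of this organ. In bulk RNA, fewer cells of a type and less RNA per cell cannot be told apart. The deposited tables hold IDs with no gene names beside them, and 0 of the 27929 IDs matched the RefSeq gene table of this species. No gene, pathway or cell type can therefore be named, and the tissue label was not checked against markers. The genes are described by abundance, length and place. Each ID holds a sequence name and 2 position fields, read as start and end, and the labels name no genome build for them.

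The counts of the 146 genes added up to 882626 at normal temperature, against 154316 under heat. They took 5.30% of the normal temperature library (exact binomial 95% interval 5.29% to 5.31%) and 0.737% of the high temperature library (0.733% to 0.741%). With TMM scaling 193 genes met the rule, and with DESeq2 size factors 196 genes did. Each of these larger sets took 1.15% of the high temperature library size as rescaled by its method. That share has another denominator than the 0.737%, so they are not directly comparable. With library totals the joint share of the 146 genes was 4.56 percentage points, or 7.19-fold, lower at high temperature. All intervals here cover counting error only, and these reads carry no molecular identifiers, so that copies of 1 molecule can be counted repeatedly. The authors' FPKM (fragments scaled by gene length and library total) weighs genes by transcript number more closely than counts do. By that scale the 146 genes held 6.47% of the summed FPKM at normal and 0.827% at high temperature.

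Over all IDs with a lower CPM at high temperature, 10674 in number, the summed difference was 189711 CPM. The 146 genes supplied 24.0% of it. Shares of a library are relative, so the sum of all lower shares equals that of all higher shares by construction.

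**Figure D1:**
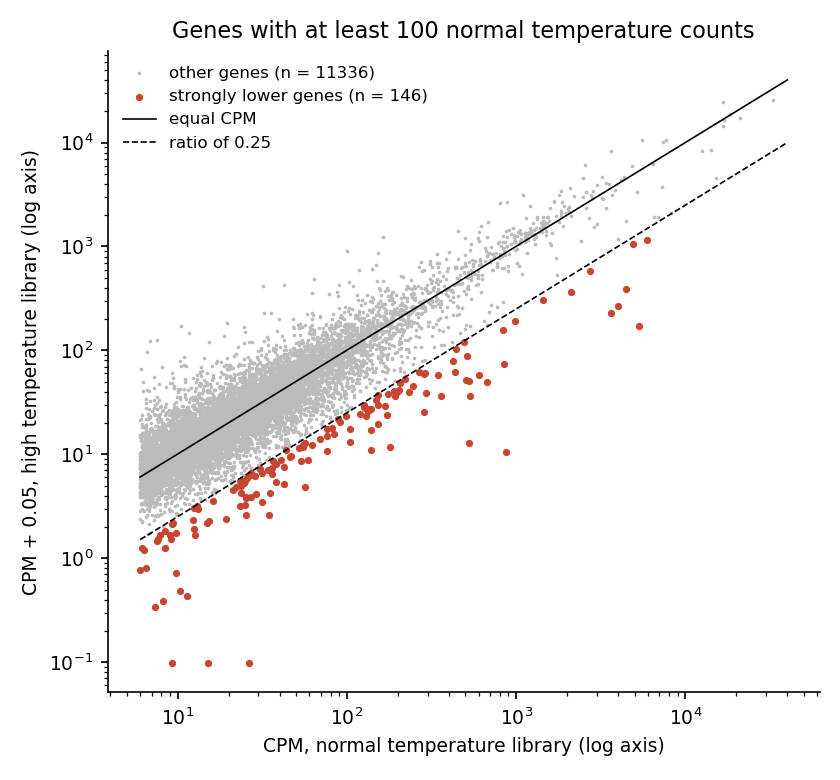
CPM in the normal temperature library (x axis, log scale) and CPM + 0.05 in the high temperature library (y axis, log scale) for 11482 genes with at least 100 normal temperature counts. The 146 strongly lower genes (red) lie on or under the dashed line at a ratio of 0.25, from 6.003 to 5884 CPM at normal temperature.

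Single genes of the set ranged from 100 to 98025 counts at normal temperature, with a median of 914.5, and from 1 to 24280 at high temperature, with a median of 223. Per length, their median was 66.1 FPKM at normal and 10.8 FPKM at high temperature. The median of all 11482 eligible genes was 15.9 FPKM at normal and 15.8 FPKM at high temperature. The set thus sat above the typical eligible gene in one library and below it in the other. Its lower standing at high temperature, here and in the ranks that follow, is largely set by the ratio limit of the rule. Of the 146 genes, 9 were among the 100 genes with most counts at normal temperature, and 0 were among the top 100 at high temperature. By FPKM, 6 were in the top 100 at normal and 1 at high temperature.

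The median ratio was 0.190 in the set and 1.02 over all eligible genes. That wider median depends on the scaling. With TMM scaling it was 0.907, since TMM places every ratio 0.16 lower on the log2 scale (a shift of -0.16). Among eligible genes, 819 (7.13%) had a ratio of at most 0.5, while 33 (0.287%) were at least 8-fold lower and 10 (0.0871%) at least 16-fold lower. The upper counting bound of the plain ratio, with nothing added to CPM, stayed at or under 0.25 in 101 of the 146 genes. It was under 0.5 in all 146, which the count minimum and the ratio limit together bring about.

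The limit of 0.25 fell within a continuous range of values. The 3 genes just inside it had 725 and 227, 8149 and 2524, and 2525 and 781 counts at normal and high temperature, with ratios (0.05 added) of 0.25, 0.247 and 0.246. The 3 genes just outside had 136 and 42, 514 and 161, and 218 and 68 counts, with ratios of 0.2503, 0.2505 and 0.2511. With nothing added to CPM, the ratios of these 3 outside genes were 0.2457, 0.2492 and 0.2482, all under 0.25. The added 0.05 thus placed them outside. Counting intervals of the plain ratios span the limit for the genes on both sides, so a gene at this edge could stand on either side. A further 2 genes with 90 to 99 normal temperature counts met the ratio but not the count minimum.

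Few genes carried the abundance lost, taken as normal minus high temperature CPM. The rule makes every gene of the set lose most of its normal temperature CPM. The loss therefore largely follows abundance at normal temperature. How far counts are concentrated in few genes over all eligible genes was not measured beside it. The 3 genes that lost most accounted for 30.5% of the set's 45612 CPM, 6 for 54.5%, 10 for 67.4% and 20 for 80.1%. A share of 75% was reached with 16 genes and 90% with 39. The 73 genes that lost least gave 3.01% together. The 6 leading genes took 2.82% of the normal temperature library and 0.328% of the high temperature library.

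**Figure D2:**
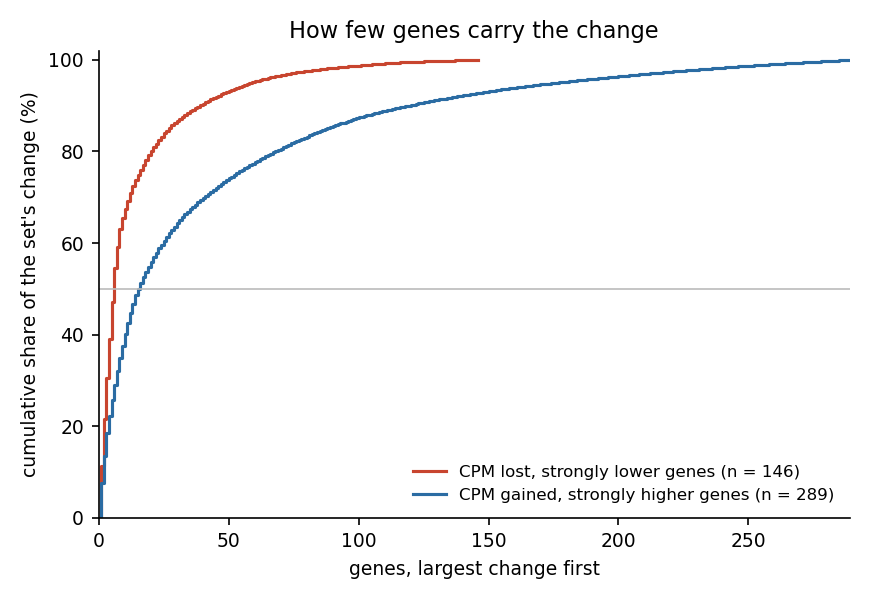
Cumulative share of the CPM lost over the 146 strongly lower genes (red) and of the CPM gained over the 289 strongly higher genes (blue), with genes ordered by the size of their own change on the x axis. The red line passes 50% at 6 genes and the blue line at 16.

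The same rule turned round, with at least 100 high temperature counts and a ratio of at least 4, gave 289 of 12865 genes (2.25%). These strongly higher genes took 0.279% of the normal and 1.67% of the high temperature library, a difference of 1.40 percentage points against the 4.56 of the lower set. Of their gain, 40.1% lay in 10 genes, and 16 genes made up 50% of it. The count minimum acts on a different library in each set and the libraries differ in depth, so these values stand side by side without a test.

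The gene with the largest loss lies on sequence CI01000073 from 89521 to 90370 and is 285 bases long as counted. Its counts were 88547 (5315 CPM) at normal temperature against 3614 (173 CPM) under heat. This is 30.8-fold lower (counting interval 29.8 to 31.8) and alone made up 11.3% of the loss. Its FPKM of 18650 held rank 6 of all genes at normal temperature, and its FPKM of 606 held rank 232 at high temperature.

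The next gene by loss, on CI01000015 from 890625 to 902801, is 3306 bases long and had 98025 and 24280 counts at normal and high temperature. It had the most counts of the set in both libraries, yet was only 5.07-fold lower (5.003 to 5.15). The gene on CI01000205 from 910423 to 913491, of 1377 bases, had 73917 and 8226 counts and was 11.3-fold lower (11.0 to 11.6). A short gene of 325 bases on CI01000000, from 4119261 to 4119788, had 81891 and 22142 counts and was 4.65-fold lower (4.58 to 4.72). At high temperature it was the only gene of the set in the top 100 by FPKM, at rank 46 with 3254 FPKM, against rank 10 with 15125 FPKM at normal temperature. It had more counts than the gene on CI01000205 in both libraries, and a milder ratio.

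The fifth and the sixth gene by loss showed steeper ratios. The gene on CI01000113 from 285871 to 286497, of 444 bases, had 66430 and 5659 counts and was 14.8-fold lower (14.4 to 15.2). The gene on CI01000174 from 433771 to 444896 had 60191 and 4841 counts and was 15.6-fold lower (15.2 to 16.1). Its 1225 bases as counted fill 11.0% of its span, the smallest part among the 12 genes that lost most.

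Ranks 7 to 9 were held by genes with milder ratios. On CI01000006, from 7223113 to 7228278, 45450 counts at normal stood against 12172 at high temperature, a 4.69-fold lower level. On CI01000012, from 12902396 to 12904687, the counts were 35226 and 7692, a 5.76-fold lower level. On CI01000034, from 3869116 to 3883535, they were 24065 and 6437, a 4.70-fold lower level.

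CI01000238_00182005_00186316 came at rank 10 by loss and had the lowest ratio among the 12 genes that lost most. With 14489 counts (870 CPM) at normal temperature against 221 (10.6 CPM) under heat, it was 82.4-fold lower (72.1 to 94.5). By counts its rank among all genes was 161 at normal and 9289 at high temperature. A second gene of CI01000113, from 332256 to 333023, had 16343 and 4034 counts, and a gene on CI01000004, from 15827737 to 15828938, had 14165 and 1565. They were 5.09-fold and 11.4-fold lower, respectively. The 12 genes lie on 11 sequences, run from 285 to 3306 bases in length, and 4 of them are under 500 bases.

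**Figure D3:**
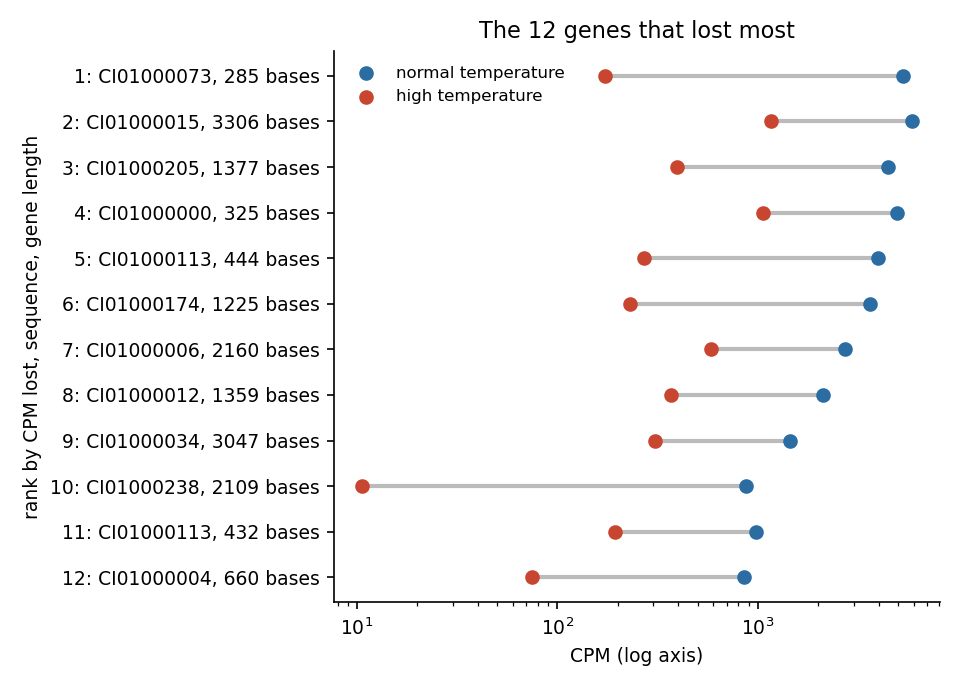
CPM on a log axis for the 12 genes that lost most, each row giving the rank by CPM lost, the sequence and the gene length, with the normal temperature library in blue and the high temperature library in red. The gene on CI01000238 shows the widest gap, from 870 to 10.6 CPM, and the gene on CI01000000 among the narrowest.

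The other 134 genes had a median of 42.9 CPM at normal temperature (6.003 to 841) and 8.60 CPM at high temperature (0.0478 to 158). The steepest ratios sat partly at the sparse end. CI01098000_00000053_00000454 held 438 counts at normal temperature against 1 under heat, a plain CPM ratio of 0.00182 with a counting interval of 4.6e-05 to 0.0102, or 0.00371 with 0.05 added. In all, 7 genes of the set had fewer than 10 high temperature counts, and their ratios have wide intervals. Some abundant genes also had steep ratios, though none as low as that of the gene on CI01098000. A gene of 312 bases on CI01000086, from 629905 to 632087, had 8817 and 268 counts and was 41.3-fold lower (36.6 to 46.9). Across the 146 genes, normal temperature count and ratio had a Spearman's rho of -0.07, a description over genes that share both libraries.

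The part of eligible genes that met the rule was larger among abundant genes. It was 31 of 5008 genes (0.619%) at 100 to 299 normal temperature counts and 46 of 4504 (1.02%) at 300 to 999. It was 30 of 1383 (2.17%) at 1000 to 2999, 24 of 367 (6.54%) at 3000 to 9999 and 15 of 220 (6.82%) from 10000 upward. Those 15 genes gave 74.9% of the loss, and their median ratio was 0.0946, against medians of 0.180 to 0.206 in the 4 sparser classes. The rule used the normal temperature count in both its parts, so a chance-high count there favours membership, and these parts are given as a description.

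Gene length took no part in the rule. It was recovered from counts and FPKM for 145 of the 146 genes, with a median of 964 bases (binomial 95% interval of the median 876 to 1065). That interval treats the genes as independent and covers counting of genes only, so it is no test of a difference in length. Over the 11463 eligible genes with a length, those of the set included, the median was 1350 bases. Long genes were few, with 17 (11.7%) over 2000 bases against 29.8% of the eligible genes, while 31 (21.4%) were under 600 bases against 15.1%. The shortest, on CI01000054 from 12318711 to 12319755, has 201 bases and had 2219 and 540 counts at normal and high temperature. The longest, on CI01000340 from 19231651 to 19244239, has 7881 bases and had 3379 and 875 counts. These single genes, the shortest and the longest, were 5.16-fold and 4.85-fold lower.

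By length quintile of the eligible genes, the rule was met by 42 of 2300 genes (1.83%) up to 696 bases and by 44 of 2288 (1.92%) from 697 to 1113 bases. It was met by 32 of 2294 (1.39%) from 1114 to 1620, 16 of 2291 (0.698%) from 1621 to 2526 and 11 of 2290 (0.480%) from 2527 upward. In the same order of length, the median ratio of the strongly lower genes was 0.153, 0.179, 0.201, 0.208 and 0.202. Ratios as a whole also moved with length in these libraries. The median ratio of eligible genes was 0.942 in the shortest and 1.11 in the longest quintile. With each ratio divided by the median of its quintile, an alternative chosen after seeing the data, the rule was met by 37 (1.61%), 42 (1.84%), 32 (1.39%), 19 (0.829%) and 15 (0.655%) genes, in order of length. The part played by this shift between the libraries was not tested further.

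The set was not shorter than the eligible genes at every abundance. Median lengths of strongly lower against eligible genes were 725 against 1243 bases at 100 to 299 counts, 860 against 1455 at 300 to 999 and 1176 against 1497 at 1000 to 2999. At 3000 to 9999 counts they were 1244 against 1359. From 10000 counts upward the order turned, with 1359 against 940.5 bases over 15 and 220 genes. The shortest quintile gave 36.7% of the set's loss and the middle one, of 1114 to 1620 bases, 29.1%.

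**Figure D4:**
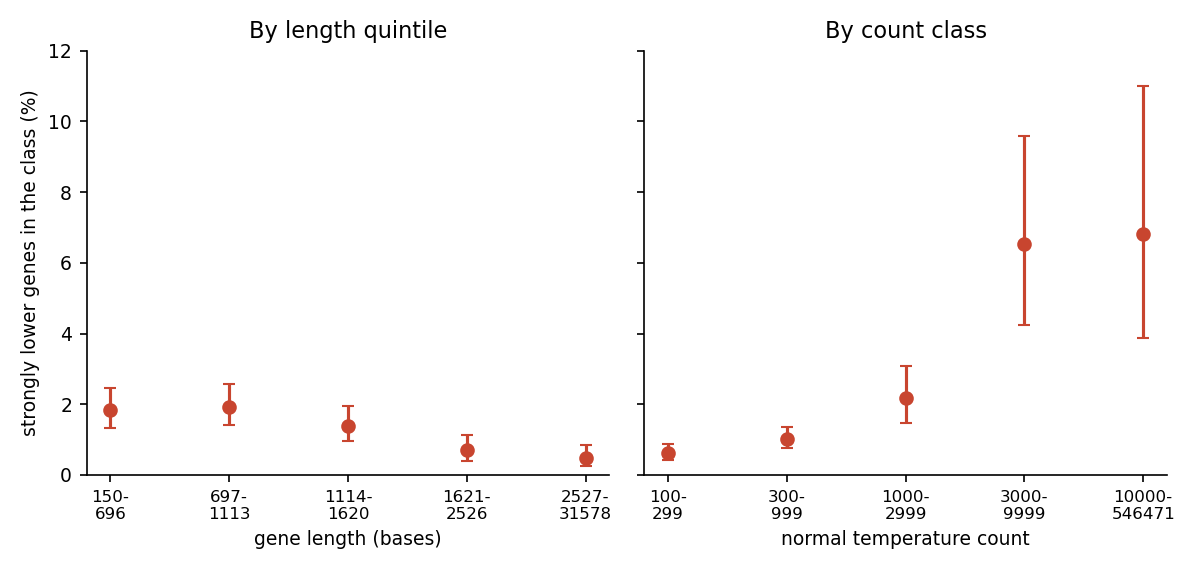
Strongly lower genes as a percentage of the eligible genes in each quintile of gene length (left) and each class of normal temperature count (right), with exact binomial 95% intervals that cover counting of genes only. The percentage is 1.83 in the shortest and 0.480 in the longest quintile, and 0.619 in the sparsest and 6.82 in the most abundant class.

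Spans between the position fields were shorter too. The median span of 145 genes of the set was 4312 bases, against 7490 over the eligible genes. Only 6 (4.14%) spanned over 20000 bases, against 17.6%. The widest, on CI01000059 from 1463769 to 1531967, covers 68199 bases of which 7400 are counted as gene, and it had 2558 and 619 counts at normal and high temperature. The counted length filled a median of 22.9% of the span in the set and 18.8% over the eligible genes.

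A length equal to the span leaves no room for an intron. This held for 4 of 144 genes of the set (2.78%, exact interval 0.762% to 6.96%) and for 3.90% of the eligible genes. With a minimum of 20 counts in place of 100, it held for 7.88% of the genes that met the ratio and for 5.49% of all genes with that minimum. These 4 genes include CI01098000_00000053_00000454, whose 402 bases make it also the narrowest span of the set. The others have 417, 742 and 4089 bases, on CI01000154, CI01089537 and CI01000353. They had 939 and 100, 217 and 66, and 769 and 196 counts at normal and high temperature.

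The genes of the set were spread over 86 of the 627 sequences that held an eligible gene, 57 of them with a single gene of the set. The most on one sequence was 7, on CI01000340. Between genes of the set that follow each other on a sequence, the median gap was 1362 kb over 59 gaps, and 8 gaps were under 20 kb. One gene of the set carries no position.

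Of 145 genes with a position, 12 (8.28%, exact interval 4.35% to 14.01%) had another gene of the set as the next listed gene. The part was 4.30% with a minimum of 500 counts and 18.2% among the 33 genes at least 8-fold lower. The 18.2% rests only on the 4 genes of CI01000238 and a pair on CI01000113, described below. The minimum of 500 counts drops the CI01000238 genes with 154 and 253 normal temperature counts. The abundant genes of CI01000238 then no longer count as adjacent. That minimum also drops the gene with 151 counts from a pair on CI01000004 and the gene with 447 counts from a pair on CI01000300. The other gene of each of those pairs, both described below, then no longer counts as adjacent either. Among 11331 eligible genes outside the set, 131 (1.16%) lay next to one of its genes. Neighbours come in groups and are not independent, so the interval is too narrow. The 131 eligible neighbours outside the set had a median ratio of 0.959, against 1.02 for all eligible genes outside the set. Of these neighbours 16 (12.2%) had a ratio under 0.5, against 5.94%.

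The adjacent genes formed 5 groups, and a sixth group appears when genes with under 100 normal temperature counts are passed over. Whether members of a group are near-identical copies, between which reads can be divided, is not known here, so ratios of single members are uncertain. The 14 genes of the 6 groups gave 13.1% of the loss.

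The only group of more than 2 genes holds 4 on CI01000238, over 64.1 kb from 182005 to 246057, with no other listed gene between them. After the gene with 14489 counts come genes with 154, 10098 and 253 counts at normal and 1, 1200 and 1 at high temperature. Per length, the abundant pair stood at 412 and 389 FPKM at normal temperature and at 5.01 and 36.8 FPKM at high temperature. The pair was alike at normal temperature and apart at high temperature. Their lengths are 2109, 1968, 1557 and 708 bases.

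The most abundant group is a pair on CI01000113, 1.18 kb apart, of 432 and 444 bases. The gene from 283931 to 284691 had 4773 and 536 counts, and its neighbour from 285871 to 286497 is the gene with 66430 and 5659 counts. They were 11.2-fold (10.2 to 12.3) and 14.8-fold lower, with intervals that do not overlap. Together they gave 8.72% of the loss.

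The remaining groups are pairs, given here by their plain CPM ratios. On CI01000228, near the start of the sequence, the genes had 136 and 7, and 122 and 6 counts at normal and high temperature, ratios of 0.0410 and 0.0391. On CI01000004, 4.84 kb apart, they had 151 and 34, and 521 and 137 counts, ratios of 0.179 and 0.209. On CI01000300 they had 447 and 132, and 3168 and 851 counts, ratios of 0.235 and 0.214. On CI01000046 the genes had 2859 and 498, and 4090 and 947 counts, ratios of 0.139 and 0.184. In the first 3 of these pairs the counting intervals of both ratios overlap, while those of the CI01000046 pair, 7.22-fold (6.56 to 7.95) and 5.43-fold lower (5.06 to 5.83), do not.

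**Figure D5:**
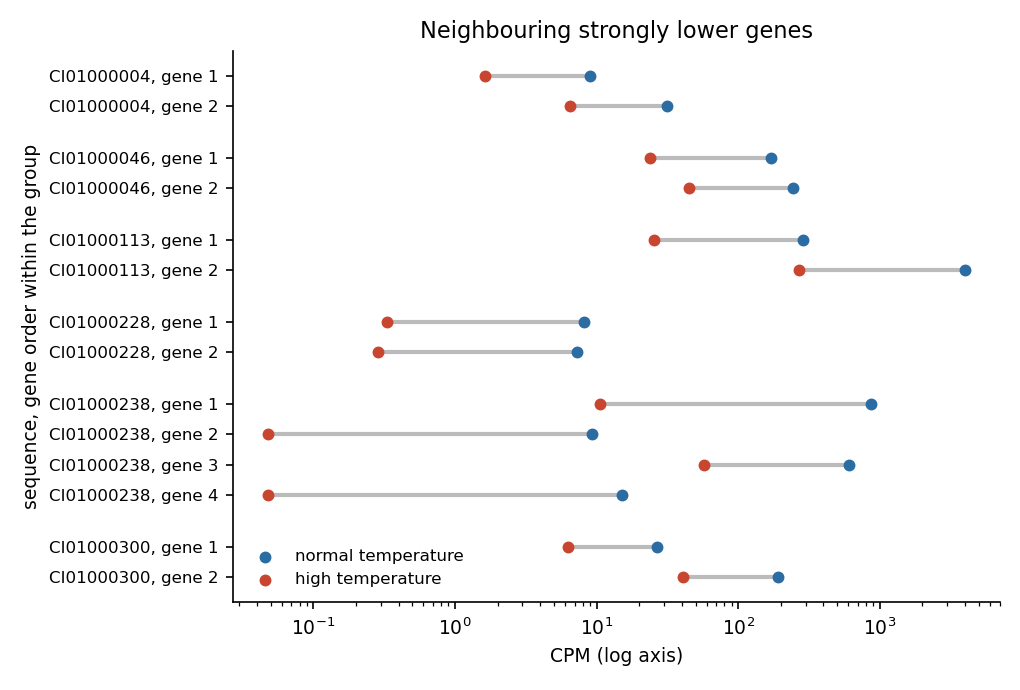
CPM on a log axis for the 14 strongly lower genes in 6 groups of neighbours, in gene order within each sequence, with the normal temperature library in blue and the high temperature library in red. Levels within a group differ up to many-fold, as on CI01000238, where 2 of the 4 genes had 1 count each (0.0478 CPM) at high temperature.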

How the data were processed

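Spleen RNA, taken up in Trizol reagent and prepared by Illumina methods per the labels' protocols, gave 1 library per temperature. CASAVA 1.7 and HISAT are named in the submitters' processing notes, and no counting tool, strand setting, genome build or annotation is stated there. The authors deposited raw read counts per gene. The authors also deposited FPKM values, which are the same counts divided by gene length and library total (within 5e-05 for 4800 IDs checked), so they are no second measurement. Lengths come from both, where rounding left under 0.2 bases of doubt.

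With 1 library per group no model was fitted, edgeR's quasi-likelihood test included. Intervals are exact Clopper-Pearson at 95%, except that of the median length, which is read from the ranked lengths by the binomial distribution. Intervals of a share or ratio of counts set the 2 libraries, not the conditions, side by side. Genes are described by a rule: the 12 with the largest loss, groups of 3 or more neighbours, 2 with the lowest upper bounds, 3 on each side of the limit, and extremes of length and span. Neighbouring pairs, genes whose length equals their span, and the CI01000086 gene were added after values were seen. The members and rules were chosen with earlier results of these data known. The scripts were tested on simulated data. Alternatives were edgeR 4.0.16 TMM and DESeq2 1.42.0 scaling (R 4.3.3), totals without the 10 most abundant genes, another added constant, count minimums and ratio limits. Python 3.11.15, numpy 2.4.6, scipy 1.17.1, pandas 2.3.3 and matplotlib 3.10.9 were used.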

Additional observations from a re-analysis of the deposited data

How the results depend on the processing

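Of 69 values recomputed under 10 alternatives, 33 stayed within their counting interval or, for the number of genes, within 1.5 times 146. The others follow, with the joint shares at normal and high temperature and the part of the loss in the 10 leading genes in that order. They were 7.51%, 1.15% and 67.7% (67.75) with TMM scaling (193 genes), 7.54% (7.545), 1.15% and 67.6% with DESeq2 size factors (196 genes), and 6.42%, 0.872% and 67.2% with totals without the 10 most abundant genes. With 0.5 added to CPM they were 5.28%, 0.732% and 67.7%. A minimum of 20 counts gave 5.32% at normal temperature and 67.2% in the leading genes, and 7.88% of genes had a length equal to the span. A minimum of 500 counts left 93 genes with 5.21%, 0.722% and 68.5%, a median length of 1080 bases and 4.30% with an adjacent gene of the set. A limit of at least 8-fold lower left 33 genes with 2.39%, 0.154% and 89.9%, a median length of 781.5 bases and 18.2% with an adjacent gene. An upper counting bound of at most 0.25 gave 5.06%, 0.682% and 70.2%. Of the alternatives added after seeing the data, leaving out the genes in adjacent groups gave 4.65%, 0.688% and 70%, and ratios over the median of the length quintile gave 5.36%, 0.754% and 66.8%. Fewer or more genes enter each sum by construction. With TMM scaling, DESeq2 size factors and the totals without the 10 most abundant genes, the shares are of rescaled or reduced library sizes. Those shares are therefore not directly comparable with the ones from full library totals. No paired analysis was possible because each temperature has 1 library, and no library could be left out.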
